A study of Mus musculus with 9 samples.

Results

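Acute exposure of cultured brown adipocytes to norepinephrine (NE) was examined at 838481 CpG cytosines by setting 1 treated library (BAT + NE) against 2 untreated libraries of mature brown adipocytes, BAT day 6 and BAT day 4. A CpG cytosine was called higher where BAT + NE lay at least 10 percentage points (hereafter points) above both untreated libraries. It was called lower where BAT + NE lay at least 10 points below both. By that rule 28526 cytosines were higher in BAT + NE (3.4% of all) and 27665 were lower (3.3%). Runs of neighbouring cytosines and promoters were called from such cytosines by rules given below. The comparison asked whether 4 h of NE left a mark on the DNA methylome of brown cells.

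The cells were preadipocytes isolated from interscapular fat of 3-week-old BL6 mice, grown to confluence and differentiated with insulin, dexamethasone, IBMX and rosiglitazone. IBMX, which slows the breakdown of cyclic AMP, was thus given early in differentiation to every differentiated library, treated or not. BAT + NE and BAT day 6 were both harvested on day 6, and the treated culture received NE for 4 h. BAT day 4 was harvested on day 4 and BAT day 0 before differentiation. The series held 9 libraries in all, 1 for each condition. The remaining 5 libraries were WAT + NE (BWAT in the labels) of days 4 and 6, from inguinal preadipocytes given NE during differentiation, and untreated WAT of days 0, 4 and 6. DNA was cut with MspI and TaqαI, bisulfite converted and sequenced (reduced representation bisulfite sequencing), so a level is the percentage of reads at a cytosine that kept the C. With 1 library a condition there was no replicate, and the table gave levels with no read number beyond a minimum depth of 10 reads, so no test could be made and no value below has an interval.

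Norepinephrine is the transmitter of the sympathetic nerves in brown fat. It binds beta-adrenergic receptors, raises cyclic AMP and activates protein kinase A, which drives lipolysis within minutes and, through CREB bound to cyclic AMP response elements (CREs), the transcription of immediate-early genes and then of thermogenic genes such as Ucp1. A methyl group on the CpG in the middle of a CRE is known to weaken CREB binding.

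The sequences below are the DNA of 6 runs of cytosines in which BAT + NE stood outside both untreated libraries on both strands, chosen to show different genomic settings, and of 2 CREs whose central CpG did so. They were read from the forward strand of NCBIM37 (mm9). In the first 6, capitals mark CpGs with at least 1 cytosine 10 points or more outside both untreated libraries. In the last 2, capitals mark the CRE, TGACGTCA, a palindrome that reads the same on both strands.

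Fgfr2 intron, chr7:137513155-137513256: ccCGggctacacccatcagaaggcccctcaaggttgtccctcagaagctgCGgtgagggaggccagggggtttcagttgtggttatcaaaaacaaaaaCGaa
Intergenic run whose nearest annotated start is Mir802, chr16:93150614-93150736: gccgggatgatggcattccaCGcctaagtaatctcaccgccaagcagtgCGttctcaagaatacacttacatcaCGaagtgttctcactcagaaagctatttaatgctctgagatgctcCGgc
Hoxc9 promoter, chr15:102807326-102807434: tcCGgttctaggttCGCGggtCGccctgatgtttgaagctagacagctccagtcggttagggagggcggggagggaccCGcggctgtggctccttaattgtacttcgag
Lnpep coding exon, chr17:17716201-17716235: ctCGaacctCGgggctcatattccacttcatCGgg
Gbas intron, chr5:130235300-130235407: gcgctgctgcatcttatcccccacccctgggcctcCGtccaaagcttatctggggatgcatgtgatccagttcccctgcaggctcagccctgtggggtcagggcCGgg
Xkr7 coding exon, chr2:152880479-152880596: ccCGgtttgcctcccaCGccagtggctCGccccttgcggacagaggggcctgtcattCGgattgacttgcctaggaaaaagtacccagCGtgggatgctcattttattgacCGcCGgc
CRE in a Nostrin intron, chr2:68985148-68985195: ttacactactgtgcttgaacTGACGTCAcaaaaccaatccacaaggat
Intergenic CRE nearest 1700017G19Rik, chr3:40423949-40423996: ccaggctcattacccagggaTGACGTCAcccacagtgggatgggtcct

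Over 16 promoters that tell brown from white cells, the treated library differed from BAT day 6 by -8.94 to 9.88 points, with a median difference of -0.189 points. At those of the homeobox genes Hoxa5 and Hoxc4, which set position along the body axis, it had 5.54% and 0.836%, against 54.8% and 39.4% in untreated WAT of day 6. Hoxb6, Hoxc10 and Hoxc9, also homeobox genes, lay the other way, at 18.7%, 18.8% and 13.4% in BAT + NE and at 1.80%, 1.70% and 0.525% in WAT day 6. Of the promoters of the haematopoietic list, 2 were measured. Emr1 (the macrophage marker F4/80) had 85.4% in BAT + NE, 88.9% in BAT day 6 and 94.5% in BAT day 4, and Itgam (a myeloid integrin) had 73.1%, 73.3% and 74.05% in the same order. By the promoter rule given below, Emr1 was called lower in BAT + NE, and 0 of the 2 were called with BAT day 6 or BAT day 4 as the library outside. The 10 promoters of the endothelial list had medians of 25.02% in BAT + NE, 28.03% in BAT day 6 and 23.1% in BAT day 4, and 0 of them were called in BAT + NE. With BAT day 6 as the library outside 1 was higher and 1 lower, and with BAT day 4 3 were higher and 0 lower. Of all promoters, 4.75% were called higher and 1.82% lower in BAT + NE. The part of other cell types in any difference was not tested. The plot of the identity promoters shows these levels in all 9 libraries.

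**Figure D1:**
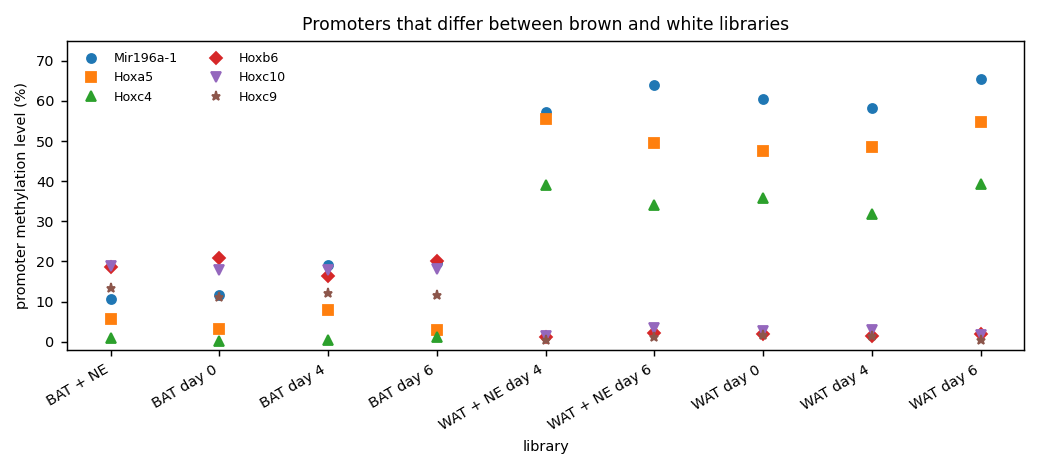
Mean methylation level (%) of 6 promoters in each of the 9 libraries, 1 point per library. BAT + NE lies at 5.54% for Hoxa5 against 54.8% in WAT day 6. At Mir196a-1 it lies below BAT day 6 and BAT day 4 and was called lower.

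Averaged over every cytosine, methylation stood at 40.82% in BAT + NE, 40.74% in BAT day 6 and 40.60% in BAT day 4. The difference of BAT + NE from BAT day 6 was 0.0819 points. It ranged from -0.0495 to 0.167 points over the 19 autosomes (SD 0.0495) and was above 0 on 18 of them. Without the 22.5% of cytosines that lie inside an MspI or TaqI recognition site it was 0.0268 points, above 0 on 14 of 19 autosomes. The 2 untreated libraries differed from each other by more, 0.142 points for BAT day 6 minus BAT day 4, above 0 on 19 of 19 autosomes. Promoters, which averaged 9.22% in BAT + NE and 9.22% in BAT day 6, differed by 0.00322 points. Exons, introns and intergenic DNA differed by 0.124, 0.150 and 0.118 points.

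The shape of the distribution was also nearly the same. Cytosines under 30% made up 51.58% of the total in BAT + NE, 51.60% in BAT day 6 and 51.72% in BAT day 4. Those above 70% made up 36.73% in BAT + NE, 36.48% in BAT day 6 and 36.47% in BAT day 4. Against BAT day 6 alone, 71254 cytosines were 10 points or more higher in BAT + NE and 69079 were 10 points or more lower, so that 50.8% of the cytosines that moved were higher.

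Each library was then put in turn in the place of the treated one, to see how many calls a library gives with no NE. BAT day 6 lay outside BAT + NE and BAT day 4 at 30478 cytosines upward and 32488 downward. BAT day 4 lay outside BAT + NE and BAT day 6 at 26396 upward and 32903 downward. The total for BAT + NE, 56191, was the smallest of the 3, against 62966 for BAT day 6 and 59299 for BAT day 4. The scatter between the strands of a CpG, whose reads come from separate molecules, had an SD of 7.26 points in BAT + NE, 7.77 points in BAT day 6 and 7.45 points in BAT day 4. It was thus lowest in the library with the fewest calls and highest in the one with the most, and its part in the counts was not tested.

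Asking for both strands of a CpG lowered the numbers in every library. Of 312084 CpGs measured on both strands, 762 were higher in BAT + NE on both (0.244%) and 681 were lower on both (0.218%). The counts were 798 higher and 834 lower for BAT day 6, and 643 higher and 921 lower for BAT day 4. At a minimum of 20 points, 69 such CpGs in all were left for BAT + NE, 73 for BAT day 6 and 73 for BAT day 4.

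Runs of cytosines (fragments) were formed from at least 4 measured cytosines with gaps of at most 300 bp. A fragment was called where its mean lay at least 10 points outside both other libraries and at least 3 of its cytosines did so, with none outside in the other direction. Of 67233 fragments, 109 were higher in BAT + NE (0.162%) and 103 were lower (0.153%). BAT day 6 gave 105 higher and 115 lower, and BAT day 4 gave 103 higher and 143 lower. With the forward and the reverse mean each 10 points outside, 20 fragments were higher in BAT + NE (0.0297%) and 19 were lower (0.0283%). The same demand gave 16 higher and 27 lower for BAT day 6, and 22 higher and 30 lower for BAT day 4. The bars of the counts by library show this at each level of the call.

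**Figure D2:**
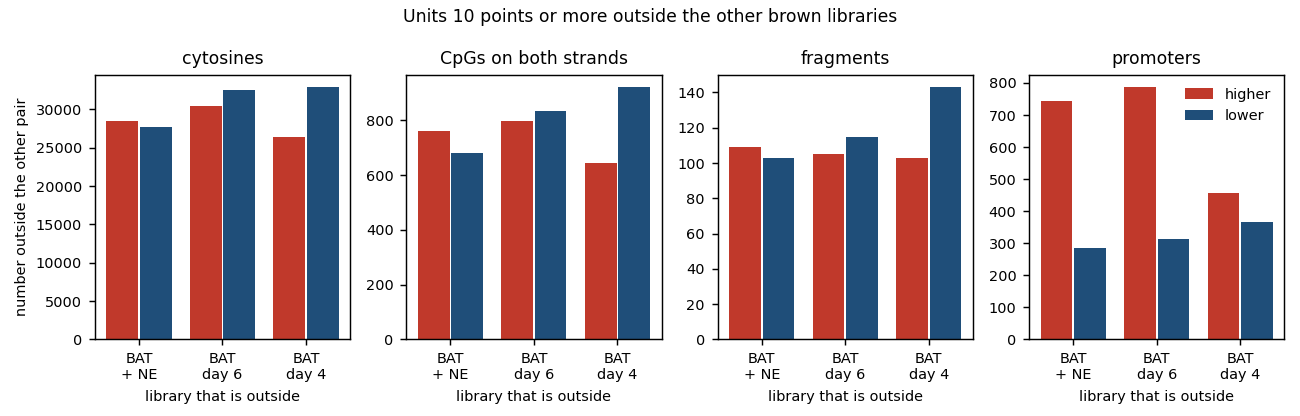
Number of cytosines, CpGs on both strands, fragments and promoters called higher (red) or lower (blue) in the library on the horizontal axis than in the other 2 brown libraries. The minimum difference is 10 points. A promoter is called from at least 2 single cytosines and not from its mean. BAT + NE gives 109 higher and 103 lower fragments, against 105 and 115 for BAT day 6 and 103 and 143 for BAT day 4.

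A measure that leaves out scatter particular to 1 strand ordered the libraries otherwise than the counts of cytosines did. For each CpG on both strands outside restriction sites, the forward-strand difference of BAT + NE from one untreated library was multiplied with the reverse-strand difference from the other, and the covariance was taken over 290047 CpGs. It was 0.462 squared points for BAT + NE, which corresponds to a difference shared by both strands with an SD of 0.680 points. By autosome it ran from -0.751 to 1.68 and was above 0 on 14 of 19. The same covariance was -0.0157 with BAT day 6 as the library outside and 0.584 with BAT day 4, above 0 on 13 of 19 autosomes. BAT day 6, which had the most cytosine calls, thus had the lowest value, and BAT + NE lay between it and BAT day 4. With restriction sites kept, BAT + NE had 0.488 and BAT day 4 0.431, so the order of these libraries turned.

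The fragments that did stand out in BAT + NE were of moderate size. The gap to the nearer untreated library had a median of 12.1 points among the 109 higher fragments and of -12.2 points among the 103 lower ones. The call rule fixed the smallest gaps, and the fragments just inside it lay at 10.01 and -10.05 points while those just outside lay at 9.998 and -9.975 points. The higher fragments had median levels of 62.2% in BAT + NE, 46.6% in BAT day 6, 44.6% in BAT day 4 and 51.6% in BAT day 0. The lower ones had medians of 53.8% in BAT + NE, 69.3% in BAT day 6, 67.7% in BAT day 4 and 63.2% in BAT day 0. Of the 109 higher fragments, 58 also lay 10 points or more above the preadipocyte library, and of the 103 lower ones 46 lay as far below it. The same counts were 68 of 105 and 65 of 115 for BAT day 6, and 38 of 103 and 49 of 143 for BAT day 4. A promoter was touched by 12 of the higher and 13 of the lower fragments in BAT + NE. The share of all fragments that touch a promoter was not counted, and promoters held 38.9% of all cytosines. Without cytosines in restriction sites, and with no minimum number of cytosines left, 81 of the higher and 77 of the lower fragments still had a gap past 10 points.

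The widest gap among fragments seen on both strands lay in an intron of Fgfr2, a receptor for fibroblast growth factors. Its 5 cytosines averaged 92.8% in BAT + NE, 64.0% in BAT day 6, 65.9% in BAT day 4 and 74.3% in BAT day 0, and each of the 5 was more than 10 points above both untreated libraries. The 3 forward-strand cytosines had 96.4%, 96.3% and 96.4% in BAT + NE, against 61.1%, 70.6% and 58.8% in BAT day 6 and 74.3%, 82.6% and 60.0% in BAT day 4. The treated values were close to full methylation there and the untreated values were not.

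An intron of Ptprt, a receptor tyrosine phosphatase, had 74.0% in BAT + NE, 51.7% in BAT day 6 and 49.8% in BAT day 4. An intron of Ccdc57 was at 100% at all 4 cytosines in BAT + NE and averaged 80.6% in BAT day 6 and 81.5% in BAT day 4. The third intronic fragment, in Ccdc155, had 53.5%, 36.9% and 34.7% in the same order. A coding exon of Lnpep, an aminopeptidase that travels with the glucose transporter GLUT4, had 71.8% in BAT + NE, 56.0% in BAT day 6 and 53.5% in BAT day 4. In each of these 4 fragments the means of the untreated libraries lay within 3 points of each other. The call rule itself placed the BAT + NE mean above both. In Ptprt the untreated strands differed, with 100% forward and 65.4% reverse in BAT + NE, 44.4% and 54.2% in BAT day 6, and 87.5% and 37.2% in BAT day 4, and its gap was 11.2 points without its 1 restriction-site cytosine, against 22.3 points with it.

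The 5 other widest higher fragments lay between genes and are named by the nearest annotated start. The run near Mir802, 219290 bp away, had the most cytosines of them, 10, at 53.1% in BAT + NE, 35.0% in BAT day 6 and 37.7% in BAT day 4, and 6 of the 10 were outside both. The run near Gm14456 had 36.8%, 17.1% and 13.7% in the same libraries. The run nearest Zc3h12a, which encodes an RNase that limits inflammatory transcripts, had 91.9% in BAT + NE, 73.9% in BAT day 6 and 75.2% in BAT day 4. Those nearest 2310042D19Rik and AC133646.1 had 92.4% and 37.3% in BAT + NE, 75.3% and 20.3% in BAT day 6, and 77.4% and 15.6% in BAT day 4.

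Of the fragments lower in BAT + NE, the widest gap lay in an intron of Gbas. Its 4 cytosines averaged 15.8% in BAT + NE, 39.4% in BAT day 6, 44.3% in BAT day 4 and 33.6% in BAT day 0. The CpG in its middle, capitalised above, had 11.1% forward and 30.4% reverse in BAT + NE, against 35.7% and 60.9% in BAT day 6 and 46.2% and 69.6% in BAT day 4. Both strands were lower by more than 20 points at that CpG.

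An intron of Ppp2r2c, a regulatory subunit of protein phosphatase 2A, had 24.4% in BAT + NE, 47.0% in BAT day 6 and 48.9% in BAT day 4. An intron of Skint4 had 56.9%, 80.1% and 78.1% in the same order. The run at the edge of an Ndrg3 promoter had 69.3% in BAT + NE, 93.3% in BAT day 6 and 91.3% in BAT day 4, but 2 of its 4 cytosines lay in restriction sites, and without them the gap was -6.27 points. It is the 1 lower fragment of the 10 that touched a promoter.

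A coding exon of Xkr7, of the family of membrane scramblase proteins, held the named fragment with the most cytosines. Its 14 cytosines averaged 69.0% in BAT + NE, 88.7% in BAT day 6, 86.4% in BAT day 4 and 80.6% in BAT day 0. Of these, 10 were outside both untreated libraries, and the CpG at the centre had 42.9% and 31.6% on its strands in BAT + NE, against 78.6% and 88.9% in BAT day 6 and 60.0% and 64.7% in BAT day 4. The other 4 cytosines overlapped between the treated and untreated libraries or differed by less than 10 points.

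The remaining 5 lower fragments lay between genes. The run near Heg1, an endothelial and cardiac membrane protein, had 66.6% in BAT + NE, 85.1% in BAT day 6 and 84.4% in BAT day 4. Those near Gm14111, U6, n-R5s64 and AC123803.1 averaged between 45.1% and 57.8% in BAT + NE, between 61.0% and 75.6% in BAT day 6 and between 62.0% and 76.9% in BAT day 4. For the Gm14111 run the gap was -8.90 points without restriction sites.

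**Figure D3:**
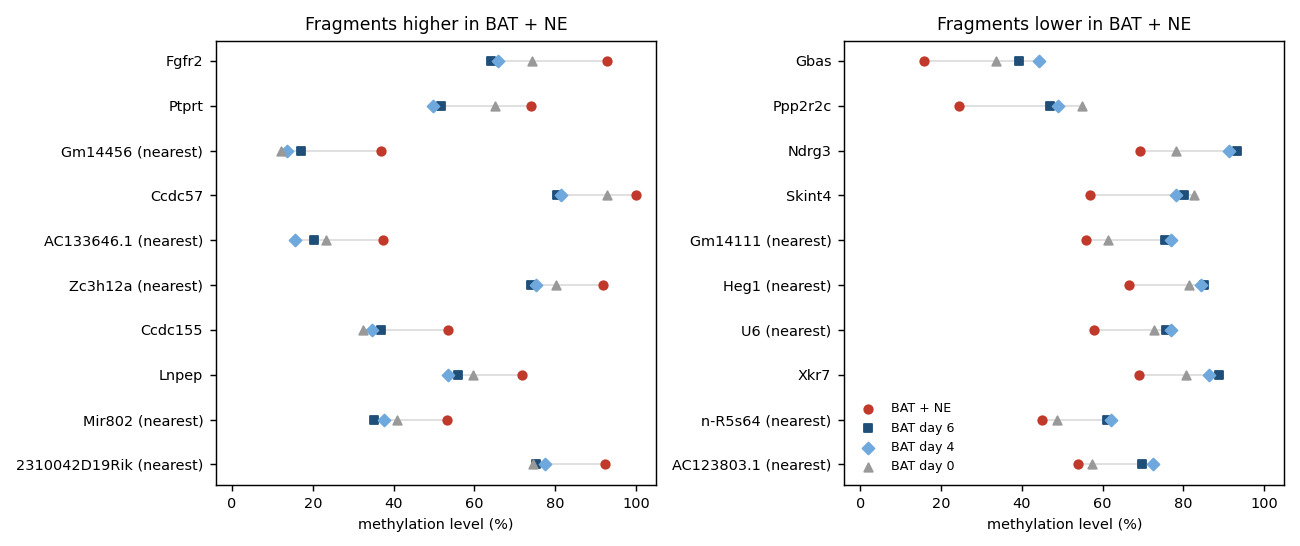
Mean methylation level (%) of the 10 fragments with the widest gap in each direction among those outside on both strands, 1 point per brown library. The Fgfr2 fragment lies at 92.8% in BAT + NE and at 64.0% in BAT day 6, and BAT day 0 falls between or beyond depending on the fragment.

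One called fragment lay in a promoter that separates brown from white cells. It was outside the 10 widest and was chosen after its values were seen. Close to the Hoxc9 start, 7 cytosines averaged 29.3% in BAT + NE, 12.2% in BAT day 6, 16.2% in BAT day 4 and 13.8% in BAT day 0, and between 0% and 3.61% in the white libraries. At the cytosine with the widest difference from BAT day 6 the values were 38.7% in BAT + NE, 5.56% in BAT day 6 and 24% in BAT day 4. That cytosine lay in a restriction site and was the only one of the run on the forward strand. The run thus counts as outside on both strands only through it. The whole Hoxc9 promoter, with 27 cytosines, was at 13.4% in BAT + NE, 11.6% in BAT day 6 and 12.1% in BAT day 4, and was not called, since 6 cytosines were outside upward and 2 downward.

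**Figure D4:**
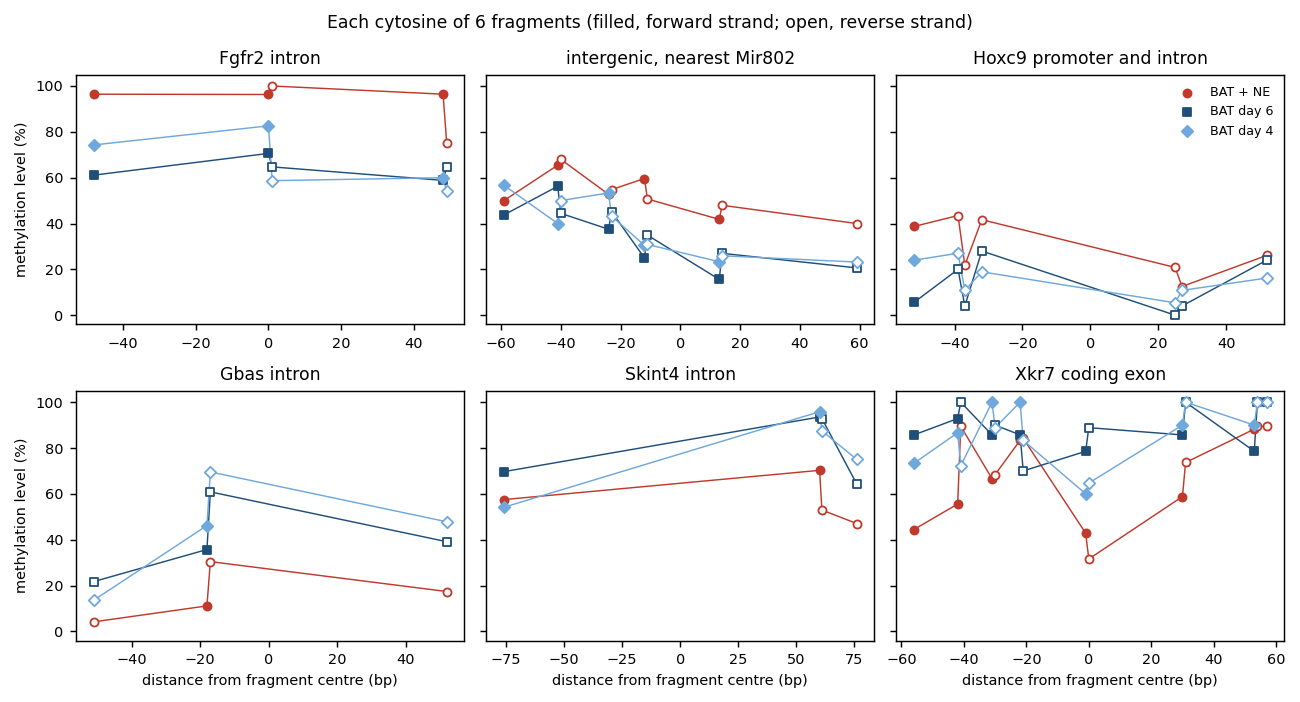
Methylation level (%) at each cytosine of 6 fragments against the distance in bp from the fragment's centre, for BAT + NE (red), BAT day 6 (dark blue) and BAT day 4 (light blue), 1 library each. At the centre of the Xkr7 exon the reverse-strand level is 31.6% in BAT + NE, against 88.9% and 64.7% in BAT day 6 and BAT day 4.

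White adipocytes given NE offered libraries that the calls had not used, although there NE was present during differentiation and not for 4 h. Of the 109 fragments higher in BAT + NE, 49 were higher in WAT + NE than in WAT on day 4 and 58 on day 6, beside 46.7% and 46.1% of all fragments. Of the 103 lower ones, 45 were lower in WAT + NE on day 4 and 49 on day 6, beside 53.1% and 53.7% of all. With 10 points required on both days, 1 higher fragment moved the same way and 0 lower ones did. The share of all fragments that pass 10 points on both days was not counted, so 1 and 0 cannot be read as a lack of agreement. The Fgfr2 fragment had 64.4% in WAT + NE and 59.8% in WAT on day 4, and 69.6% in WAT + NE and 76.3% in WAT on day 6. The Lnpep exon had 74.3% in WAT + NE and 44.3% in WAT on day 4, and 62.8% in WAT + NE and 56.7% in WAT on day 6. The Gbas intron had 23.1% in WAT + NE and 30.1% in WAT on day 4, and 18.9% in WAT + NE and 24.8% in WAT on day 6.

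Sites known to move between other libraries were also read in the treated one. At 469 CpGs that were 20 points or more higher in BAT day 4 than in BAT day 0 on both strands, BAT + NE differed from BAT day 6 by a mean of -0.72 points, and at the 420 that were lower by as much it differed by 0.681 points. At 175 CpGs higher by 20 points in WAT + NE than in WAT on day 4 the difference of BAT + NE from BAT day 6 was 0.866 points, and at the 193 lower ones it was -0.813 points. On day 6 these were 0.619 points at 171 CpGs and -1.36 points at 183. In all of these sets the SD over CpGs was between 9.76 and 12.5 points, and single autosomes lay on both sides of 0.

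Promoters were taken as 1000 bp before to 500 bp after a start, and called where at least 2 cytosines were 10 points or more outside both untreated libraries, all in one direction. Of 15694 promoters, 745 were higher in BAT + NE (4.75%) and 285 were lower (1.82%). BAT day 6 gave 787 higher and 313 lower, and BAT day 4 gave 457 higher and 367 lower. The excess of higher over lower calls was not seen against BAT day 6 alone, where 843 promoters were higher in BAT + NE and 886 lower, while against BAT day 4 alone 930 were higher and 619 lower. The share of higher calls grew with the number of cytosines measured, 2.69% at promoters with at most 10 and 9.15% at those with more than 40, while that of lower calls shrank, 2.60% and 0.530%. No cytosine can lie 10 points below both of 2 libraries that average under 10%. Of the 386474 cytosines of any region where the untreated libraries did, 4998 were higher in BAT + NE and 0 lower. By the same measure BAT day 6 gave 5965 higher and 0 lower. With the promoter mean also past 10 points, 27 were higher in BAT + NE (0.172%) and 22 were lower (0.14%), against 26 and 39 for BAT day 6 and 24 and 39 for BAT day 4.

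The promoters whose mean moved furthest held few cytosines. Lrrn3, a neuronal leucine-rich repeat protein, had 38.1% over 2 cytosines in BAT + NE, 2.78% in BAT day 6, 10.9% in BAT day 4 and 27.1% in BAT day 0. Appl2, an adaptor of adiponectin and insulin signalling, had 34.5% over 3 cytosines in BAT + NE, 2.78% in BAT day 6 and 7.49% in BAT day 4. Trf, which encodes the iron carrier transferrin, had 42.9% over 2 cytosines in BAT + NE, 16.7% in BAT day 6 and 18.6% in BAT day 4, and it is counted under 2 annotated genes that share these cytosines. The rule by which they were picked made the treated library the highest of the 3 at each. BC100451, Gm11256, Pld3 (a lysosomal exonuclease) and Gm12391 followed, at 78.4%, 83.8%, 84.5% and 39.3% in BAT + NE, against 54.8%, 47.4%, 69.2% and 24.1% in BAT day 6.

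In the other direction, Gpam, the mitochondrial acyltransferase that begins triglyceride synthesis, had 47.8% over 3 cytosines in BAT + NE, 83.3% in BAT day 6, 75.9% in BAT day 4 and 58.1% in BAT day 0. Llgl2, a cell polarity protein, had 42.1% over 2 cytosines in BAT + NE, 81.3% in BAT day 6 and 78.1% in BAT day 4. Both were nearer to the preadipocyte library than to the untreated adipocytes. Pfkl, a phosphofructokinase of glycolysis, had 66.2% over 2 cytosines in BAT + NE, 84.4% in BAT day 6 and 79.0% in BAT day 4. Rsph6a, a sperm flagellum protein, had 9.40% over 6 cytosines in BAT + NE, 22.5% in BAT day 6 and 21.9% in BAT day 4. Gm8329, Gm11466, Olfr212 and Gm7102 had 73.2%, 40.4%, 80.5% and 19.04% in BAT + NE, against 91.9%, 64.7%, 95.8% and 32.3% in BAT day 6.

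Genes that cyclic AMP switches on within the hour were looked at as a list. Of 40 such genes 36 had a measured promoter, 41 promoters in all, and 0 were called higher and 0 lower in BAT + NE, beside 4.75% and 1.82% of all promoters. They had a median of 1.01% in BAT + NE, 1.25% in BAT day 6 and 1.24% in BAT day 4. In 38 of the 41 the level was under 10% in all 3 libraries, and 40 of the 41 differed by less than 2 points between BAT + NE and BAT day 6. A cytosine under 10% in the untreated libraries cannot be called lower. The 0 lower calls therefore cannot show whether methylation was lost at these promoters. Cebpb, an early transcription factor of adipogenesis, had the most cytosines, 131, and was at 1.78% in BAT + NE, 2.10% in BAT day 6 and 1.88% in BAT day 4. Nr4a3, an orphan nuclear receptor of the immediate-early kind, was at 1.009%, 1.004% and 0.545% in the same order at its main promoter. Crem, which encodes a repressor of CRE-driven genes, was at 0.490%, 0.623% and 1.44%, and Dusp1, a MAP kinase phosphatase, at 0.976%, 0.957% and 0.516%. Those above 10% were 1 promoter each of Nr4a1, Nr4a3 and Thbs1, and Nr4a1 had 18.9% in BAT + NE, 18.8% in BAT day 6 and 13.0% in BAT day 4.

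Thermogenic genes gave 5 higher and 1 lower of 39 promoters in BAT + NE (12.8% and 2.56%), beside 4.75% and 1.82% of all promoters. The 39 held a median of 26 cytosines, against 17 over all promoters, and the share of higher calls grew with that number. The counts were 0 and 3 with BAT day 6 as the library outside, and 0 and 2 with BAT day 4. The 5 were Ckb (creatine kinase B), Esrra (a nuclear receptor of mitochondrial genes), Rxra, Lhx8 and Bmp8b, and in each the whole promoter moved by less than 3 points. Lhx8, a homeobox marker of brown fat, had 5.70% in BAT + NE, 3.92% in BAT day 6 and 3.14% in BAT day 4. Bmp8b, a secreted factor of thermogenic fat, had 9.93% in BAT + NE, 8.45% in BAT day 6 and 9.48% in BAT day 4. Esrra had 2.91% in BAT + NE, 1.44% in BAT day 6 and 3.10% in BAT day 4, so that its promoter mean lay between the untreated libraries. The lower one was an internal promoter of Prdm16, a coregulator of brown identity, at 82.6%, 85.6% and 82.6%. Of promoters not called, that of Cidea, a lipid droplet protein, had 2.53% in BAT + NE, 4.19% in BAT day 6 and 3.44% in BAT day 4, and the transcription factor Ebf2 had 11.1%, 8.39% and 7.65%. The second Ucp2 promoter, of a mitochondrial carrier, had 93.6% in BAT + NE, 86.8% in BAT day 6 and 87.6% in BAT day 4. Promoters of Ucp1 and Ppargc1a were not analysed here.

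Along the pathway itself, adrenergic receptors, cyclic AMP enzymes, kinases and CREB partners gave 9 higher and 1 lower of 89 promoters (10.1% and 1.12%), beside 4.75% and 1.82% of all promoters. The 89 held a median of 23 cytosines, against 17 over all promoters. The counts were 7 and 1 with BAT day 6 as the library outside, and 5 and 1 with BAT day 4. Among receptors, Adrb3, the main receptor for NE in mouse fat, had 3.70% in BAT + NE, 3.03% in BAT day 6 and 0.98% in BAT day 4, and was not called. The phosphodiesterases, which break cyclic AMP down, gave 3 of the 9. Their number among the 89 promoters was not counted, and those of Pde7b, Pde8b and Pde4d were not called. Pde4c had 34.9% in BAT + NE, 29.0% in BAT day 6 and 33.9% in BAT day 4. Pde3b had 2.14%, 0% and 0.235% in the same order. Pde4a had 4.49%, 4.88% and 4.34%, so that its promoter mean lay between the untreated libraries. Among CREB partners, the coactivator Crtc3 had 25.4% in BAT + NE, 18.7% in BAT day 6 and 21.1% in BAT day 4, and Creb1 itself had 1.07%, 0.752% and 0.598%. Map2k3, Rptor, Mtor and Arrb1 were the others, each at 9.10% or less in BAT + NE. Prkar1a, a regulatory subunit of protein kinase A, was the lower one at 15.1% in BAT + NE, 16.3% in BAT day 6 and 15.9% in BAT day 4.

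The other lists are also to be read beside the 4.75% higher and 1.82% lower of all promoters. Lipolysis and fatty acid genes gave 1 higher and 0 lower of 23 promoters (Slc27a2, a fatty acid transport protein), with 2 and 0 for BAT day 6 and 1 and 1 for BAT day 4. Adipogenic regulators gave 5 higher and 0 lower of 35 (Creb1, Stat5b, Klf5, Rxra and Klf15), all at 1.81% or less in BAT + NE, with 1 and 0 for BAT day 6 and 1 and 1 for BAT day 4. The enzymes and readers of DNA methylation gave 1 higher and 0 lower of 34, Parp1, at 2.48% in BAT + NE, 0.436% in BAT day 6 and 0.268% in BAT day 4. That list gave 2 and 1 for BAT day 6 and 0 and 1 for BAT day 4. Clock genes gave 1 higher and 1 lower of 19, Dbp and Arntl2, with 0 and 0 for BAT day 6 and 1 and 1 for BAT day 4. The promoters that separate brown from white cells gave 0 higher and 2 lower of 16, which are the same promoter of Mir196a-1 under 2 annotated genes, at 10.7% in BAT + NE, 19.7% in BAT day 6, 19.1% in BAT day 4 and 11.6% in BAT day 0. There BAT day 6 gave 0 and 3 and BAT day 4 gave 5 and 1. The plot of the acute targets, the thermogenic genes and the imprinted genes by library shows these levels by library.

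**Figure D5:**
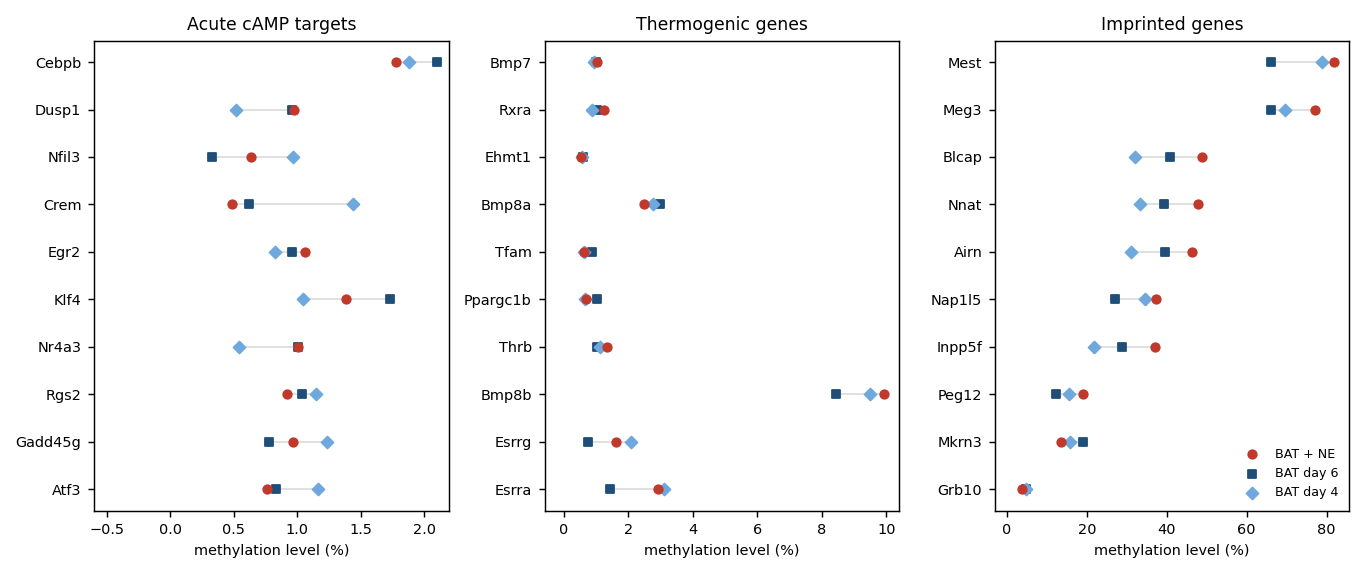
Mean promoter level (%) in BAT + NE, BAT day 6 and BAT day 4, 1 library each, for the 10 acute cyclic AMP targets and the 10 thermogenic genes with the most cytosines and for the 10 called imprinted promoters (horizontal scales differ). The acute targets lie between 0.331% and 2.10% over all 3 libraries, with Cebpb at 1.78% in BAT + NE, whereas the imprinted Airn lies at 46.4% in BAT + NE, 39.7% in BAT day 6 and 31.05% in BAT day 4.

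Imprinted genes, where one parental allele is methylated and the other is not, gave 8 higher and 2 lower of 45 promoters in BAT + NE (17.8% and 4.44%), beside 4.75% and 1.82% of all promoters. With BAT day 6 as the library outside the counts were 2 and 3, and with BAT day 4 they were 6 and 4. Where the promoter mean also had to pass the minimum difference, 0 imprinted promoters were higher and 0 lower in BAT + NE. By that rule 0.172% of all promoters were higher and 0.14% lower. For the imprinted promoters it gave 0 and 1 with BAT day 6 as the library outside, and 4 and 0 with BAT day 4. The excess in BAT + NE was thus seen only by the rule on single cytosines. Airn, an antisense RNA that silences Igf2r on the paternal allele, had 8 of 16 cytosines above both, at 46.4% in BAT + NE, 39.7% in BAT day 6 and 31.05% in BAT day 4. Nnat, a small membrane protein, had 47.8%, 39.3% and 33.4% in the same order, and Blcap, the gene around it, shares most of those cytosines. Inpp5f had 37.0% in BAT + NE, 28.7% in BAT day 6 and 21.8% in BAT day 4, and Nap1l5 had 37.3%, 27.0% and 34.6%. Mest had 81.8% in BAT + NE, 66.0% in BAT day 6 and 78.9% in BAT day 4, and Meg3, a maternal noncoding RNA, had 77.0%, 66.0% and 69.6%. Peg12 was the other higher one, and Grb10 and Mkrn3 were lower.

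Of 22 imprinted promoters whose mean over the 3 libraries was 20 to 80%, a split chosen after the values were seen, 7 were higher in BAT + NE and 0 lower, and of the other 23, 1 was higher and 2 were lower. The 7 and 0 stand beside 8.14% and 6.21% of all 2272 promoters of that range. With BAT day 6 as the library outside, 1 of the 22 was higher and 3 lower, and with BAT day 4, 5 were higher and 4 lower. The 22 had medians of 43.1% in BAT + NE, 44.7% in BAT day 6 and 43.8% in BAT day 4, while the difference within a promoter had a median of 2.61 points for BAT + NE minus BAT day 6 and of 1.69 points for BAT + NE minus BAT day 4. BAT + NE was the highest of the 3 libraries at 11 of the 22, or 50%, beside 36.8% of all promoters of that range. BAT day 4 stood apart at others of them, as at Zrsr1, with 41.3% in BAT + NE, 45.3% in BAT day 6 and 76.8% in BAT day 4.

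CREs were located in the genome sequence by exact match to TGACGTCA. They hold 453 measured cytosines, with means of 33.4% in BAT + NE, 33.2% in BAT day 6 and 32.9% in BAT day 4. Of these, 17 were higher and 11 lower in BAT + NE, 3.75% and 2.43%, beside 3.40% and 3.30% of all cytosines. In promoters the 192 CRE cytosines averaged 3.33% in BAT + NE, 3.50% in BAT day 6 and 3.56% in BAT day 4, and 93.2% of them were under 10% in all 3 libraries. There 1 was higher and 0 were lower, though a cytosine under 10% in the untreated libraries cannot be called lower. At the half-site TGACG, searched on both strands and including the full CREs, 3.27% of 15710 cytosines were higher and 4.02% lower.

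Both CREs printed above were higher in BAT + NE on each strand and lay outside promoters, and they were chosen after their values were seen. The intergenic one nearest 1700017G19Rik had 73.7% forward and 66.7% reverse in BAT + NE, against 51.9% and 19.1% in BAT day 6 and 25.9% and 33.3% in BAT day 4. The one in an intron of Nostrin, a regulator of endothelial nitric oxide synthase, had 65.1% and 72% in BAT + NE, 50.00% and 58.8% in BAT day 6 and 37.5% and 58.8% in BAT day 4. BAT day 0, at 67.9% and 62.7%, was near the treated library at the Nostrin site and not at the other, where it had 45.5% and 36.4%.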

How the data were processed

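DNA of each library was digested with MspI and TaqαI, bisulfite converted and sequenced. Per the submitters' processing notes and the study's methods, the authors aligned the reads with Bowtie (version not given in the sources used here) to mm9 and kept autosomal CpG cytosines with at least 10 reads in all 9 libraries. The deposited table holds the methylation level in percent per cytosine and no read numbers, so the Fisher test of the study could not be run, and values are compared with no test. All 838481 positions were placed on NCBIM37, and each was a CpG cytosine of that build.

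Promoters were every transcript start of the GENCODE vM1 annotation from 1000 bp before to 500 bp after it, overlapping ones of a gene merged, with at least 2 measured cytosines (15694 promoters of 13434 genes). Named were the 10 fragments per direction with the widest gap to the nearer untreated library among those outside on both strands, the 8 promoters per direction with the widest gap in the mean, every called promoter of a gene list, and list members with the most cytosines. The members and lists were chosen with earlier results of these data known. Python 3.11.15, numpy 2.4.6 and pandas 2.3.3 were used. The calling functions were checked for recovery of changes planted in simulated data. Those changes were wider than the median gap of the fragments called here, so the check does not say how reliable these calls are. Alternatives were a minimum of 20 points, 1 untreated library alone, no cytosines in restriction sites, and other fragment and promoter rules. Cytosines of one fragment can share reads.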

Additional observations from a re-analysis of the deposited data

Results flagged for a closer look

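Average methylation over every cytosine moved one way after 4 h of NE in brown cells and the other way in white cells that had NE during differentiation. BAT + NE was 0.0819 points above BAT day 6. WAT + NE differed from WAT by -0.183 points on day 4 and by -0.190 points on day 6. In the white cells every one of the 19 autosomes lay below 0 on both days, and in the brown cells 18 of 19 lay above 0. Without cytosines in restriction sites the directions stayed but the sizes fell, to 0.0268 points in the brown cells (14 of 19 autosomes above 0), -0.0876 points in the white cells on day 4 (2 of 19 above 0) and -0.119 points on day 6 (0 of 19 above 0). Between the untreated BAT day 6 and BAT day 4 the difference was 0.142 points, or 0.169 points without restriction sites. There 19 of 19 autosomes lay above 0 either way, so agreement over autosomes also arose with no NE. Each condition is 1 library and the durations of NE differed, so the difference between the cell types was not tested.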

How the results depend on the processing

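At a minimum of 20 points, BAT + NE had 4515 higher and 4556 lower cytosines, 33 and 36 CpGs on both strands, 3 and 2 fragments, and 46 and 51 promoters. Against BAT day 6 alone these were 71254 and 69079 cytosines, 3821 and 3639 CpGs, 610 and 521 fragments, and 843 and 886 promoters. Against BAT day 4 alone they were 72481 and 64447 cytosines, 4100 and 3240 CpGs, 697 and 524 fragments, and 930 and 619 promoters. Without cytosines in restriction sites, 18436 cytosines were higher and 18390 lower, and 478 promoters were higher and 238 lower. With at least 6 cytosines, 64 fragments were higher and 53 lower, and with both strand means outside, 20 and 19. With the promoter mean also past 10 points, 27 promoters were higher and 22 lower, and among promoters of 20 to 80%, added after seeing the data, 185 and 141. The mean difference from BAT day 6, 0.0819 points, was 0.0268 points without restriction sites and 0.224 points against BAT day 4. The shared covariance was 1.57 squared points at CpGs of 20 to 80%, where BAT day 6 had -0.201 and BAT day 4 1.90. Of the 20 named fragments, 18 kept a gap past 10 points without restriction sites and 2 did not (Ndrg3 and Gm14111). Among the 18, those named for Ccdc57, Zc3h12a, Ccdc155 and Skint4 were left with 2 cytosines. Those named for Ptprt, 2310042D19Rik and Gbas were left with 3. Both numbers are under the 4 that a fragment needs. The order of the 3 libraries in the number of outside fragments is not fixed either: at 20 points 5 were outside in BAT + NE, 2 in BAT day 6 and 5 in BAT day 4, and without restriction sites 179, 162 and 192. No paired analysis was possible because each condition is 1 library with no replicate number in the labels, and no replicate could be left out. Read depth above the minimum is unknown, so a difference of 10 points at a single cytosine cannot be told from sampling of reads.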
